A study of Mus musculus with 73 samples.

Results

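The milk protein genes are the 8 genes Csn1s1, Csn1s2a, Csn1s2b, Csn2, Csn3, Lalba, Wap and Glycam1, taken by symbol from the 39438 gene symbols of the deposited count table and followed through all 73 mouse mammary tumours. The study set tumours with Brca1 L1363P, a change in the coiled-coil domain by which BRCA1 binds PALB2, beside tumours of the KP, KB1P and KB2P models. RNA of each tumour was sequenced from polyadenylated transcripts, with 1 library per tumour. By genotype and histology the tumours fall into 8 groups. The genotype KB1(L1363P)P, called L1363P here, was given for 9 sarcomatoid tumours, 9 carcinosarcomas and 3 adenocarcinomas, and KP for 3 carcinosarcomas and 5 adenocarcinomas, which are named by replicate number here. All KB1P and KB2P tumours were adenocarcinomas: 11 with KB1P in the title, 10 with KB1PM in the title but KB1P as the genotype, and 23 KB2P. The labels do not spell out the alleles, the promoter of the Cre or the age. In the mouse models known by these names, a keratin 14 promoter drives Cre in epithelial cells, all carry the deletion of Trp53, and KB1P and KB2P also delete Brca1 or Brca2. The labels also give a percentage of epithelium: 100 in every adenocarcinoma, 2 to 98 in the L1363P carcinosarcomas, 80 to 90 in the KP carcinosarcomas and 0 in the sarcomatoid tumours.

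Milk proteins are made by the alveolar cells of the mammary gland in late pregnancy and lactation. Prolactin binds its receptor Prlr on luminal cells and activates STAT5, which switches on the casein genes and Wap, and the ETS factor Elf5 drives luminal progenitors towards the alveolar fate. The alpha, beta and gamma caseins are calcium-binding proteins held together in micelles that kappa-casein stabilises, and alpha-lactalbumin is the subunit of lactose synthase that makes the lactose of milk.

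Libraries held between 7325180 and 31615237 counts, and 1 count corresponded to under 1 CPM (counts per 1000000 of the scaled library size) in all of them. All L1363P and KP libraries came from 1 sequencing run, 5625, and none of the KB1P, KB1PM or KB2P libraries did, so genotype and run cannot be told apart where these are compared. Whether each tumour came from an animal of its own is not stated by the labels, and L1363P carcinosarcomas 54.1 and 54.2 share a number. A p-value here therefore refers to the spread among these samples alone, which may in part be technical. Some libraries went against their labels in the epithelial markers. KP adenocarcinoma replicate 2, labelled 100% epithelial, held 1.65 CPM of Epcam, the epithelial adhesion molecule, against 654 to 933 in the other 4 KP adenocarcinomas. In L1363P carcinosarcoma 6, labelled 95% epithelial, the 13 genes of an epithelial list summed to 610 CPM, close to the sums in carcinosarcomas 17 (632 CPM) and 4 (546 CPM), labelled 5% and 2%, although its Epcam was 99.3 CPM against 0.890 and 1.55 in those. In L1363P adenocarcinoma 52, Fabp4, a fat cell gene, reached 3930 CPM. In these whole-tumour libraries, fewer cells of a type and less RNA per cell cannot be told apart.

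The 5 casein genes lie on mouse chromosome 5 (GRCm38) within 266 kb, from Csn1s1 at chr5:87666208-87682578 through Csn2, Csn1s2a and Csn1s2b to Csn3 at chr5:87925579-87932665. Wap lies at chr11:6635482-6638637, Lalba at chr15:98480400-98482721 and Glycam1 at chr15:103562759-103565081, all on the minus strand. RefSeq promoters of GRCm38.p6, from 250 bases before to 50 bases after the start of the gene, were matched for 6 of the 8 genes. The letters TTCNNNGAA, the palindromic element that STAT5 can bind and that reads the same on both strands, occurred in 4 of the 6 against 8.3% of all 32851 promoter windows of that length. The stricter form TTCTTNGAA, searched on both strands and contained in the first, occurred in 3 of the 6 against 1.37% of windows. The 4 promoters are shown because they hold the match, which is in capitals.
Csn1s1, chr5:87665958-87666257, plus strand: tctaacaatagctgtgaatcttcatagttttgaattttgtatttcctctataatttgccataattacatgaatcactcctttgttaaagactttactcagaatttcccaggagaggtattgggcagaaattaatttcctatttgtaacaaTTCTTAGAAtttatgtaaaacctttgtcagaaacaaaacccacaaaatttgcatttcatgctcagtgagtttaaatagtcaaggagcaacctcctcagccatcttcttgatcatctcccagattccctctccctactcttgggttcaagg
Csn2, chr5:87699376-87699675, minus strand: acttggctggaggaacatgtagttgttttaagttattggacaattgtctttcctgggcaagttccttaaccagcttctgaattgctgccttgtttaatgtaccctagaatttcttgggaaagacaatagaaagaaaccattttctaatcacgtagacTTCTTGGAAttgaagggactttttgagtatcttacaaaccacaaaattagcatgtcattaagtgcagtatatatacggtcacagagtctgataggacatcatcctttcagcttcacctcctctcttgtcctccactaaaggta
Csn1s2a, chr5:87774200-87774499, plus strand: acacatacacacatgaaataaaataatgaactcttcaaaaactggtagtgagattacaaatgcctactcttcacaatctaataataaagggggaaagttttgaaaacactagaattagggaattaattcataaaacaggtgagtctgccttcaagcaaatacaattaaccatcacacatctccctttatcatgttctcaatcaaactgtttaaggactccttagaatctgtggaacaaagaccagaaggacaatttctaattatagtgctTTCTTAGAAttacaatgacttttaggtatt
Glycam1, chr15:103565032-103565331, minus strand: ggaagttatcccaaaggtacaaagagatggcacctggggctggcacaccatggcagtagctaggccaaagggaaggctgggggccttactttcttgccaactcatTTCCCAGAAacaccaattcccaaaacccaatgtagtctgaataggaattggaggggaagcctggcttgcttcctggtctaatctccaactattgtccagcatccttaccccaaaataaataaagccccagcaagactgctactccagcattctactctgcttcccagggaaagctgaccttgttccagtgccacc
Counted from the RefSeq start, the match began 100 bases before it in Csn1s1, 93 before it in Csn2, 145 before it in Glycam1 and 21 after it in Csn1s2a. Csn1s1 and Csn1s2a carried the same 9 letters, TTCTTAGAA, Csn2 carried TTCTTGGAA, and Glycam1 carried TTCCCAGAA. In the windows of Wap and Lalba these letters were not found. The ETS core GGAA, the letters that Elf5 and its relatives share, was in all 6 windows and in 96% of all windows on either strand. RefSeq starts can differ from those of the GENCODE gene bounds, by which Csn1s2a begins downstream of its window and Csn2 begins inside its window, upstream of the match. Letter patterns of the transcription factors C/EBP and NF1, the glucocorticoid receptor and the TATA element were also searched. Each occurred in 0 of the 6 windows, against 10.8%, 0.0365%, 6.85% and 13.6% of all windows in that order. The stricter STAT5 form is contained in the first, so its count is no separate support. The matches found describe the sequence and are not measured binding sites.

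Kappa-casein, Csn3, was the milk RNA found in the most tumours. It reached 1 CPM or more in 65 of 73, followed by alpha-casein Csn1s1 in 55 and beta-casein Csn2 in 52. Alpha-lactalbumin, Lalba, reached 1 CPM in 28 tumours, the gamma-casein gene Csn1s2a in 20, Glycam1 in 18, whey acidic protein Wap in 10 and Csn1s2b in 3. The highest levels were 4620 CPM for Csn1s1, 2580 for Csn3, 1675 for Csn2, 479 for Glycam1, 432 for Csn1s2a, 83.5 for Lalba, 6.38 for Wap and 4.82 for Csn1s2b. Wap, a major whey protein of mouse milk, thus stayed below 10 CPM in every tumour. The 8 genes together took at most 0.79% of the counts of a library, in L1363P carcinosarcoma 54.1.

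**Figure D1:**
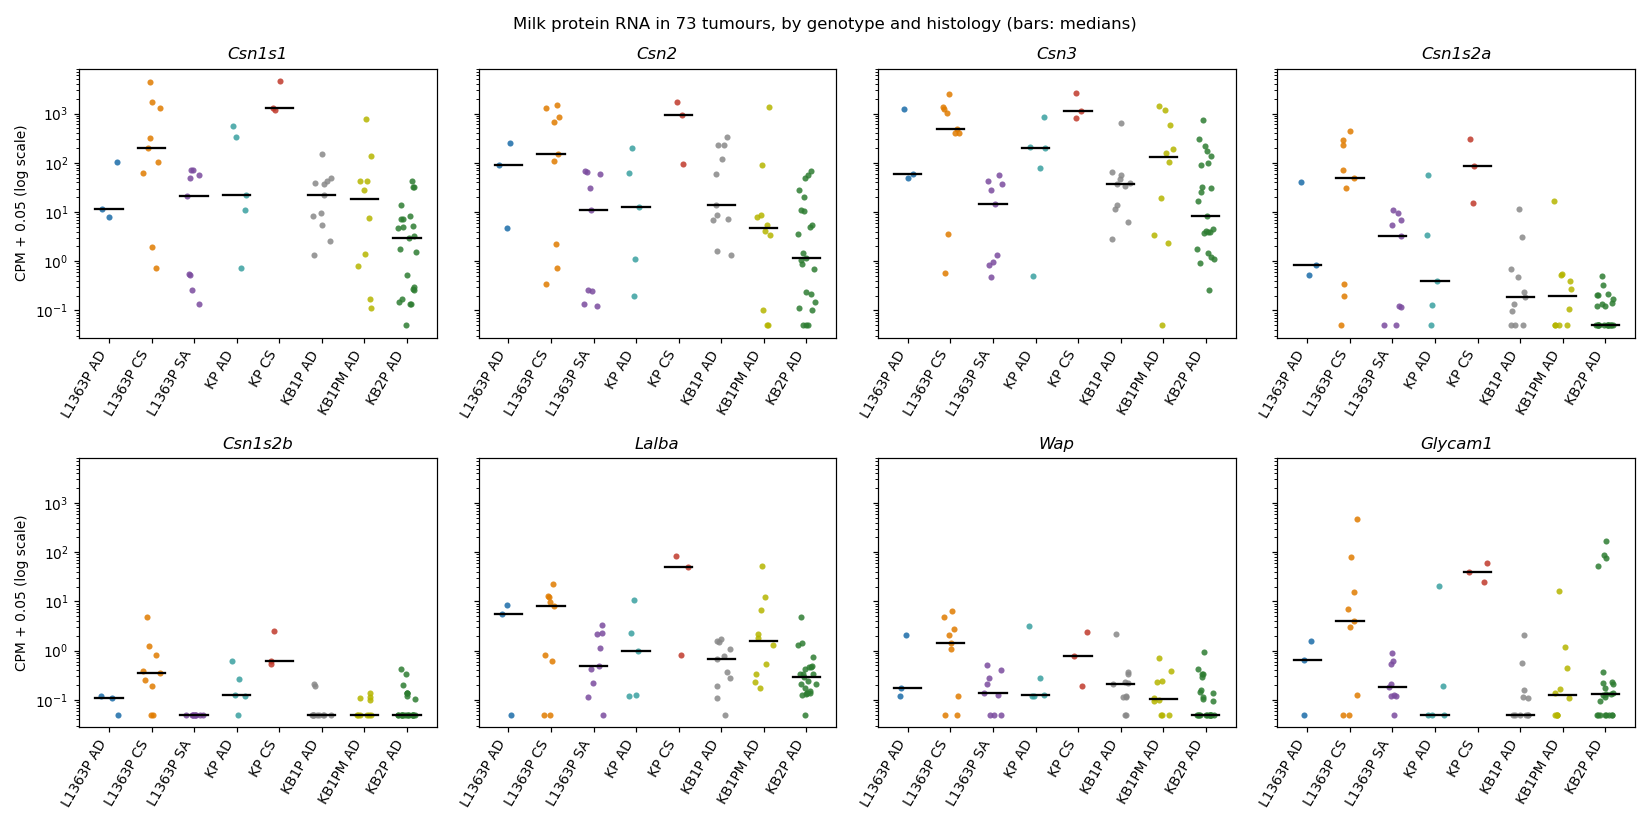
Level of each milk protein gene in the 73 tumours, as CPM + 0.05 on a log scale, by genotype and histology (AD adenocarcinoma, CS carcinosarcoma, SA sarcomatoid); points are tumours and bars medians. For Csn1s1, Csn2, Csn3 and Lalba the KP carcinosarcomas had the highest median and the KB2P adenocarcinomas the lowest, and ranges of neighbouring groups overlap.

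Ordered by the median of Csn1s1, the KP carcinosarcomas came first at 1278 CPM, then the L1363P carcinosarcomas at 196. KB1P (22.1), KP adenocarcinomas (21.9), sarcomatoid tumours (20.9), KB1PM (18.0) and L1363P adenocarcinomas (11.6) followed close together, and the KB2P tumours were lowest at 2.93 CPM. Csn2, Csn3 and Lalba had the same groups at the top and the bottom, with medians of 947, 1138 and 49.6 CPM in the KP carcinosarcomas and of 1.12, 8.30 and 0.247 CPM in the KB2P tumours. For each of the 8 genes, the ranges of groups next to each other in its own order overlapped. The order of Elf5 was another: L1363P adenocarcinomas at 124 CPM and KP adenocarcinomas at 126 headed it, the KP (103) and L1363P carcinosarcomas (90.6) came next, the KB2P (74.5), KB1P (59.3) and KB1PM (57.3) tumours followed, and the sarcomatoid tumours were far below at 1.44 CPM, with no overlap between the KB1PM and the sarcomatoid tumours.

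Per kilobase of transcript, the member with the highest level was Csn3 in 27, Csn2 in 19, Csn1s1 in 12 and Glycam1 in 3 of the 61 tumours with at least 100 milk protein counts. Csn2 led in 7 of the 11 KB1P tumours, while Csn3 led in 12 of the 19 KB2P tumours that held enough counts. Csn1s1 and Csn2, which stand next to each other and face in opposite directions, were within 3-fold of each other per kilobase in 32 of 46 tumours with at least 100 counts of the pair. In 4 tumours Csn1s1 exceeded Csn2 over 10-fold, and in 2 it was the reverse. KP adenocarcinoma replicate 5 held 340 CPM of Csn1s1 and 1.08 of Csn2, KB1PM tumour 10 held 766 and 7.97, and KB1PM tumour 4 held 41.8 and 1348. The caseins therefore did not keep 1 ratio across tumours, even within 1 group.

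In some tumours Csn3 stood almost alone among the caseins. Csn3 exceeded Csn1s1 over 10-fold per kilobase in 14 of 56 tumours, in 27 the 2 were within 3-fold, and in 0 of 56 was Csn1s1 that far above Csn3. For Csn2, Csn3 was over 10-fold higher in 19 of 55 tumours and Csn2 in 2, and in 20 they were within 3-fold. KB1PM tumour 9 held 1395 CPM of Csn3 beside 0.0631 of Csn1s1 and 0 of Csn2, so that Csn3 made up 99.9% of its milk protein RNA per kilobase. L1363P adenocarcinoma 52 held 1261 CPM of Csn3 beside 7.96 of Csn1s1 and 4.72 of Csn2, and Csn3 made up 98.7%. These 2 tumours were high in Elf5, at 179 and 124 CPM.

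**Figure D2:**
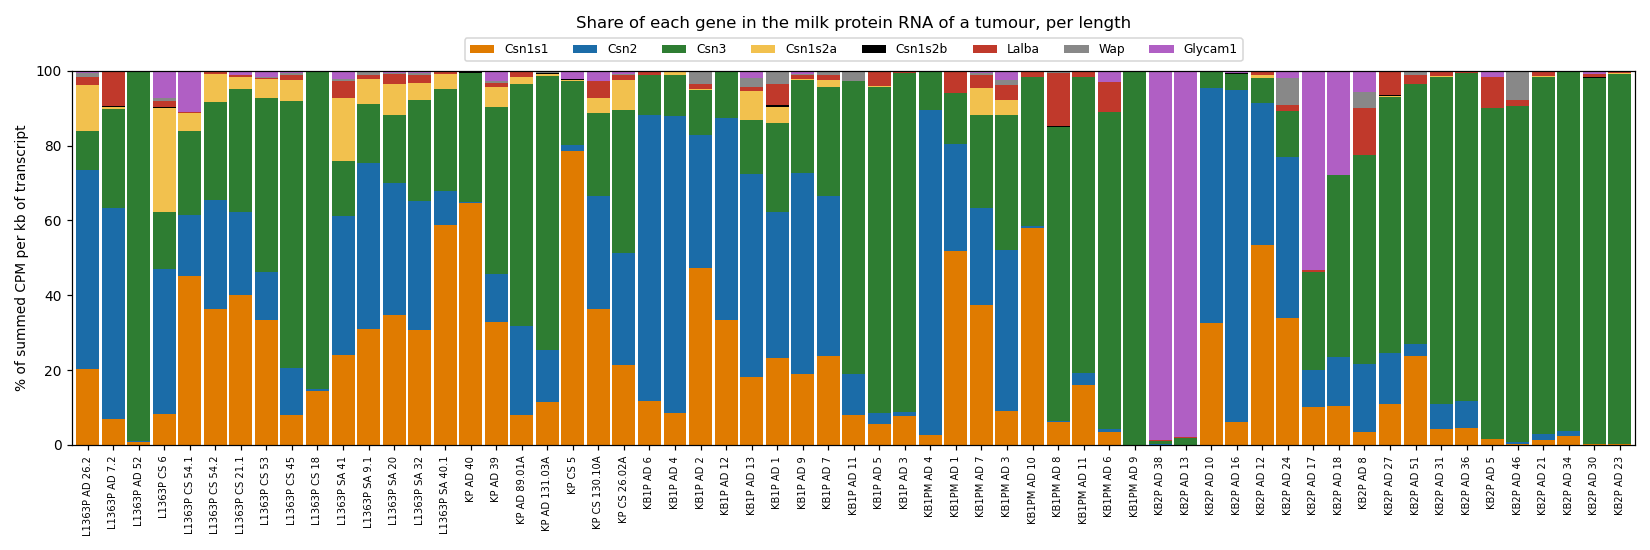
Share of each milk protein gene in the summed CPM per kb of transcript, in percent, for the 61 tumours with at least 100 milk protein counts; each bar is a tumour. Green (Csn3) fills nearly the whole bar of L1363P adenocarcinoma 52 and KB1PM tumour 9, Glycam1 fills the bars of KB2P tumours 38 and 13, and KP adenocarcinomas 40 and 39 are replicates 5 and 4 of the text.

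The first comparison asked how milk protein RNA differed between the L1363P sarcomatoid tumours and the L1363P carcinosarcomas, which mix a glandular and a spindle-shaped part. It was lower in the sarcomatoid tumours for 7 of the 8 genes. All 8 passed the filter on low counts, of which Csn1s2b, Wap and Glycam1 reached 1 CPM in no sarcomatoid tumour and so passed through the other groups, and 21.5% of the 16147 genes tested were called in this comparison. Csn1s1 lay between 0.0853 and 71.9 CPM (median 20.9) in the sarcomatoid tumours and between 0.668 and 4331 (median 196) in the carcinosarcomas. No sarcomatoid tumour reached the median of the carcinosarcomas in any of the 8 genes, and 6 of 9 carcinosarcomas lay above every sarcomatoid tumour in Csn1s1. How many of all genes stand apart in these ways was not counted, so such counts of tumours are a description, here and below. Csn1s1 fell by 4.91 on the log2 scale (SE 1.44, edgeR quasi-likelihood test with Benjamini-Hochberg adjustment, adjusted p = 0.0180).

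Csn3 ranged from 0.427 to 55.1 CPM (median 14.5) in the sarcomatoid tumours and from 0.519 to 2447 (median 490) in the carcinosarcomas, where 7 of 9 exceeded every sarcomatoid tumour. It fell by 5.37 (SE 1.27, edgeR adjusted p = 0.00495). Among the remaining caseins, Csn2 fell by 4.30 (edgeR adjusted p = 0.0382) and Csn1s2a had a log2 difference of -4.95 (edgeR adjusted p = 0.0216). Csn1s2b had no count in any of the 9 sarcomatoid tumours and 112 counts in the carcinosarcomas, 62.5% of them in tumour 54.2, which made it at least 35.5-fold lower when 3 counts over the sarcomatoid group were taken as the floor.

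The whey genes and Glycam1, a mucin-like glycoprotein of milk, showed the same direction. Wap did not exceed 0.472 CPM in the sarcomatoid tumours and ranged up to 6.38 in the carcinosarcomas, with a log2 difference of -3.69 (edgeR adjusted p = 0.0174). Glycam1 did not exceed 0.831 CPM against up to 479, with a log2 difference of -7.89 (SE 1.72, edgeR adjusted p = 0.00259). Since Wap and Glycam1 passed the filter on low counts through groups in which they were higher, these p-values are no separate support. Lalba was at most 3.22 CPM against at most 22.5, and its log2 difference of -2.78 (SE 1.14) did not pass the threshold (edgeR adjusted p = 0.0790). The median log2 difference of the 8 genes was -4.93, with Csn1s2b at its bound as well, beside -0.04 for all genes tested. The count of 7 became 2 with limma on the deposited log2 values and 4 when the fit held these groups alone, where 5 of the 8 could be tested. Without carcinosarcomas 17 and 4 and KP adenocarcinoma replicate 2 all 8 were called. Carcinosarcomas 17 and 4 lay lowest of their group in Csn1s1, Csn2 and Csn3. Leaving them out widens the difference by itself, so this count is no separate support.

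Regulators and other secretory genes were followed in lists. Of 18 genes of prolactin signalling and alveolar control, 8 were lower and 0 higher. Elf5 fell by 5.14 (SE 1.13, edgeR adjusted p = 0.00282), from 0 to 283 CPM in the carcinosarcomas to 0 to 9.42 in the sarcomatoid tumours. Socs2, a feedback inhibitor of the receptor, fell by 2.97, the transcription factor Nfib by 2.60 and Stat5a by 1.65 (edgeR adjusted p = 0.000752, 0.000371 and 0.00328). Prlr itself had a log2 difference of -2.38 (edgeR adjusted p = 0.1), and Jak2, the kinase at the receptor, of -0.02. Of 18 measured genes of milk secretion and milk fat, 9 were lower and 0 higher, led by Thrsp, a regulator of fat synthesis (-5.22), transferrin Trf (-4.67), Cidea, a lipid droplet protein (-4.40), and lactoferrin Ltf (-4.13). The enzymes Fasn (-0.13) and Xdh (0.42) and the droplet protein Plin2 (0.03) of the same list did not pass. The epithelial list had 11 of 13 genes lower, and of 7 fibroblast and 6 macrophage genes 3 each were higher; their part in the result was not tested.

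The 9 sarcomatoid tumours, all labelled 0% epithelial, differed widely among themselves. In 5 of them the summed level of the 8 genes was 78.7 to 196 CPM, and in the other 4 it was 0.853 to 2.08 CPM. In the 5, Csn1s1 was 20.9 to 71.9 CPM, Csn2 10.7 to 68.0 and Csn3 14.5 to 55.1, so caseins were readily counted in tumours labelled without epithelium. In the 4, Csn1s1 was 0.0853 to 0.497 CPM, and Csn2 did not exceed 0.213. Elf5 was 1.44 to 9.42 CPM in the 5 and 0 to 0.286 in the 4. E-cadherin, Cdh1, was 16.0 to 46.4 CPM in the 5 and 1.92 to 8.31 in the 4, and Epcam was 5.43 to 41.1 and 1.11 to 4.01, while the summed epithelial list overlapped between them (101 to 908 against 104 to 359 CPM). The 5 and the 4 were told apart by the milk protein values themselves, so these ranges are a description and their part in the result was not tested.

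Against the 3 L1363P adenocarcinomas, all 8 log2 differences were negative in the sarcomatoid tumours and only Csn3 was called, where 30.6% of all genes tested were called. Csn3 was 1261, 60.5 and 49.6 CPM in adenocarcinomas 52, 26.2 and 7.2, and 8 of the 9 sarcomatoid tumours lay below all of them. It fell by 4.53 (SE 1.38, edgeR adjusted p = 0.0154), and without adenocarcinoma 52 the difference was -1.46 and the call was lost (adjusted p = 0.503, edgeR). Csn1s1, at 7.96, 103 and 11.6 CPM in adenocarcinomas 52, 26.2 and 7.2, had a median that 5 of 9 sarcomatoid tumours exceeded, and its difference of -0.46 (SE 1.70) did not pass (edgeR adjusted p = 0.856). Elf5 separated these groups fully: it was 113 to 359 CPM in the adenocarcinomas and at most 9.42 in the sarcomatoid tumours, a fall of 5.93 (edgeR adjusted p = 0.00157). The median log2 difference of the 8 genes was -2.14, or -1.97 with Csn1s2b at its bound, beside -0.09 for all genes tested. Of the 18 regulators 5 were lower and 4 higher, and of the 18 secretory genes 9 were lower and 1 higher. Of the 13 epithelial genes 11 were lower, and all 6 macrophage genes were higher; their part in the result was not tested.

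The carcinosarcomas held more milk protein RNA than the pure adenocarcinomas in value, in both genotypes, and none of the 8 differences passed the test. Among L1363P tumours, Csn1s1 in the 9 carcinosarcomas ran from 0.668 through a median of 196 to 4331 CPM, and 5 of them exceeded all 3 adenocarcinomas while 2 lay below all of them. The log2 difference of Csn1s1 was 4.45 (SE 2.32, edgeR adjusted p = 0.273), that of Glycam1 6.53 (SE 2.63, edgeR adjusted p = 0.166) and that of Csn3 0.85. All 8 differences were positive with a median of 2.63, beside 0.01 over all genes, and edgeR called 0 of 8, where 2.7% of all genes were called. At an unadjusted p under 0.05 there were 2 (Csn1s2b and Glycam1), DESeq2 called 1 and limma 0. In the 3 adenocarcinomas Csn1s2b had 2 counts in all and Glycam1 a median of 0.607 CPM. Both passed the filter on low counts through groups in which they were higher, so these p-values are no separate support.

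Among KP tumours Csn1s1 was 4620, 1199 and 1278 CPM in carcinosarcoma replicates 3, 2 and 1. In KP adenocarcinoma replicates 4, 5, 1, 3 and 2 it was 551, 340, 21.9, 10.8 and 0.675 CPM. Glycam1 was 24.8 to 60.4 CPM in the carcinosarcomas and 0 to 20.3 in the adenocarcinomas. The share of all genes whose ranges stand apart between so few tumours was not counted, so these ranges are a description. The log2 differences of Csn1s1 (3.65, SE 1.93), Csn2 (4.03, SE 2.05) and Lalba (4.01, SE 1.66) did not pass the threshold (edgeR adjusted p = 0.448, 0.434 and 0.363). All 8 were positive with a median of 3.40, and 0 of 8 were called; 0% of the 16147 genes were called by edgeR here, although 1926 had an unadjusted p under 0.05, Lalba among them, and DESeq2 and limma called 0 of the 8 as well. The difference between the 2 effects was called by edgeR, DESeq2 and limma for 0 of the 8 genes, also for 0 at an unadjusted p under 0.05, where 0.0124% of genes were called by edgeR, with a difference of 0.80 (SE 2.62) for Csn1s1 and of -3.35 (SE 2.11, edgeR adjusted p = 0.455) for Lalba.

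The mean of both effects, a comparison chosen after the data were seen, was 4.05 for Csn1s1 (SE 1.54, edgeR adjusted p = 0.167), 4.93 for Glycam1 (adjusted p = 0.112, edgeR) and 1.67 for Csn3, with 0 of 8 called against 1.6% of all genes. For Elf5 the log2 difference between carcinosarcomas and adenocarcinomas was -0.79 (SE 1.27) in L1363P and 0.11 (SE 1.45) in KP tumours, neither past the threshold. The epithelial list had 0 of 13 genes called in either genotype. In the L1363P comparison, 2 of 8 basal genes (Krt14 -3.41, Krt17 -4.58) and 1 of 9 adipocyte genes (Fabp4 -5.23) were lower in the carcinosarcomas; their part in the result was not tested. In the L1363P comparison, Socs3, a feedback inhibitor of cytokine receptors, was higher among the 18 regulators, and the phosphate transporter Slc34a2 (-4.59) and lactoperoxidase Lpo (-4.28) were lower among the 18 secretory genes. Between the 3 L1363P and the 5 KP adenocarcinomas edgeR, DESeq2 and limma called 0 of the 8 genes, and 0 had an unadjusted p under 0.05, where 0.211% of all genes were called by edgeR, with log2 differences between -2.55 for Glycam1 and 1.05 for Csn2.

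Within the 9 L1363P carcinosarcomas, milk protein RNA was higher with a higher labelled percentage of epithelium. At 98, 95, 90, 85, 85, 75, 40, 5 and 2% (tumours 21.1, 6, 54.1, 45, 53, 54.2, 18, 17 and 4), Csn2 was 685, 862, 1466, 153, 110, 1275, 2.14, 0.297 and 0.666 CPM. Tumours 17 and 4 lay lowest in Csn1s1, Csn2 and Csn3, and the 7 tumours of at least 40% did not line up with the percentage in detail. In a fit across all genes, 6 of 8 rose with the percentage, where 8.34% of 14645 genes tested were called. The slope per 10 percentage points was 1.26 for Csn2 (SE 0.26, edgeR adjusted p = 0.0233), 2.04 for Glycam1 (SE 0.48, edgeR adjusted p = 0.0345), 1.17 for Csn1s2a, 1.11 for Csn1s1, 0.95 for Wap and 0.94 for Lalba. Csn3 (0.78, edgeR adjusted p = 0.0825), Csn1s2b (0.53), Elf5 (0.68) and Prlr (0.44) did not pass.

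**Figure D3:**
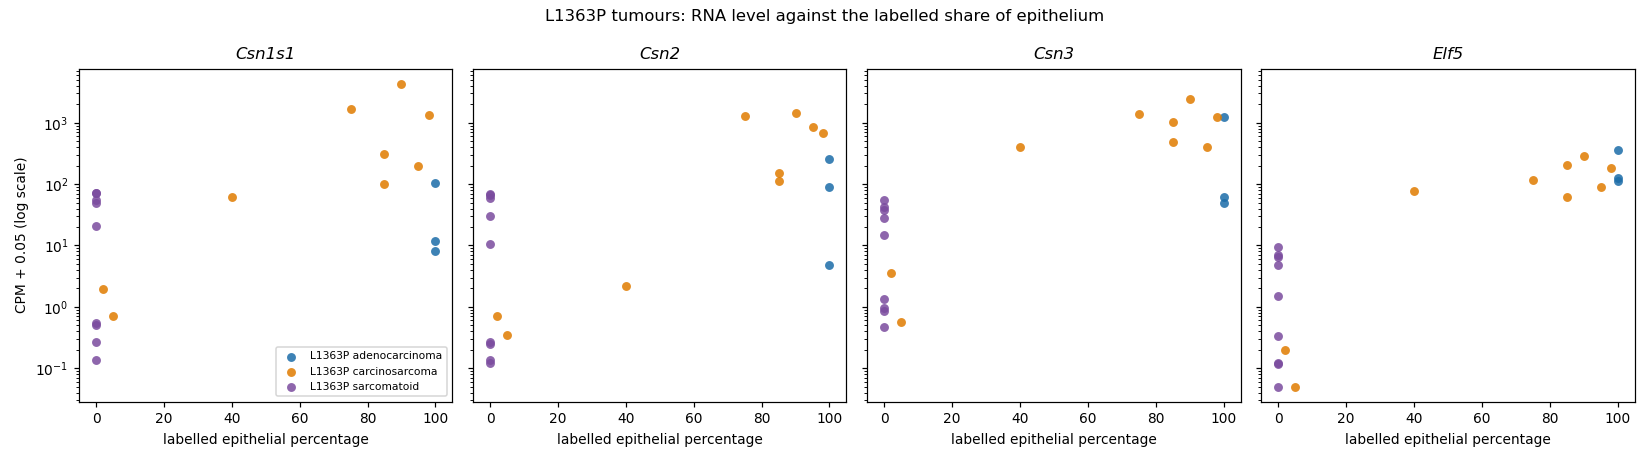
Level of Csn1s1, Csn2, Csn3 and Elf5 in the 21 L1363P tumours, as CPM + 0.05 on a log scale, against the labelled percentage of epithelium; points are tumours. Carcinosarcomas 17 and 4, labelled 5% and 2%, lie with the lowest sarcomatoid tumours, and the 6 carcinosarcomas of 75% or more hold at least 102 CPM of Csn1s1.

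Without carcinosarcomas 17 and 4, 0 of the 8 genes were called among the 7 that remained, while the slopes of the called genes stayed positive: 3.07 for Glycam1 (SE 1.12), 1.32 for Csn1s2a (SE 0.68), 1.09 for Csn2 (SE 0.68), 0.92 for Wap, 0.75 for Csn1s1 and 0.74 for Lalba. The errors of these slopes were larger than with all 9, and Wap had an edgeR adjusted p of 0.869. Over the 7 tumours of at least 40%, Pearson's r with the percentage (p unadjusted, 8 genes examined) was 0.847 for Csn2 (exact permutation p = 0.0575), 0.875 for Csn1s2a (exact permutation p = 0.0623), 0.817 for Glycam1 (exact permutation p = 0.0246), 0.501 for Csn1s1, 0.384 for Csn3 and 0.422 for Elf5. It was 0.208 for Csn1s2b and -0.274 for Prlr. Adjusted over the 8 genes, the exact permutation p of Csn2, Csn1s2a and Glycam1 was 0.117 each, past the threshold for no gene. All 6 macrophage genes of a marker list fell with the percentage, 2 of 7 fibroblast genes did, and 0 of 13 epithelial genes were called; their part in the result was not tested. Of the regulators Nfib (0.28 per 10 points), and of the secretory genes Thrsp (0.80) and Ltf (0.87), rose as well, 1 of 17 and 2 of 16 tested.

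The KB1P and KB1PM tumours, averaged with equal weight, differed from the KB2P tumours in 5 of the 8 genes, where 13.2% of 18492 genes tested were called. No run held tumours of more than 1 of these 3 groups, so genotype and run cannot be told apart here either. Csn1s1 in KB1P tumours was 1.26 to 153 CPM (median 22.1), in KB1PM tumours 0.0631 to 766 (median 18.0) and in KB2P tumours 0 to 42.7 (median 2.93). The ranges overlapped: 4 of the 21 KB1P and KB1PM tumours exceeded every KB2P tumour and 15 lay above the KB2P median. Csn1s1 was higher in KB1P and KB1PM by 2.99 (SE 0.82, edgeR adjusted p = 0.00833). Csn2 (1.27 to 336 CPM in KB1P, 0 to 1348 in KB1PM, 0 to 66.5 in KB2P) was higher by 3.33 (SE 0.95, edgeR adjusted p = 0.0115), and Lalba by 2.17 (edgeR adjusted p = 0.0215).

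Csn1s2a was higher by 4.39 (edgeR adjusted p = 0.00152). It reached 1 CPM in 2 of 11 KB1P, 1 of 10 KB1PM and 0 of 23 KB2P tumours. It therefore passed the filter on low counts without the KB2P tumours, and its call rests on few tumours. It had no count in 13 of the 23 KB2P tumours and at most 0.463 CPM in the rest, and 6 of the 21 KB1P and KB1PM tumours lay above all KB2P tumours, led by KB1PM tumour 7 at 17.0 and KB1P tumour 13 at 11.4 CPM. Csn3, the kappa-casein, did not pass (1.10, SE 0.77, edgeR adjusted p = 0.373), with 2.77 to 648 CPM in KB1P, 0 to 1395 in KB1PM and 0.210 to 738 in KB2P tumours. Elf5 (-0.41) and Prlr (1.12) did not pass either (edgeR adjusted p = 0.630 and 0.156), and Elf5 medians were 59.3, 57.3 and 74.5 CPM in the order KB1P, KB1PM, KB2P. Of the 18 regulators 0 were called, and of the 19 secretory genes Lao1, an amino acid oxidase of milk (3.53, edgeR adjusted p = 0.00304), and Plin2 (0.56, edgeR adjusted p = 0.0495) were higher. The calls came from the fit of all 73 libraries; a fit of these groups alone called 3 genes, limma on the deposited log2 values called 0, and the KB2P tumours of run 2749 or of run 2459 alone left 3 called each. Between KB1PM and KB1P tumours edgeR and limma called 0 of the 8 genes and DESeq2 1, where 0.887% of genes were called, and Lalba was the gene with an unadjusted p under 0.05 (3.45, SE 0.99, edgeR adjusted p = 0.0696).

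The fifth called gene was Glycam1, which went the other way, lower in KB1P and KB1PM by 4.61 (SE 1.17, edgeR adjusted p = 0.00420). Besides milk, Glycam1 is known as a product of high endothelial venules, the vessels through which lymphocytes enter lymph nodes. KB2P tumours 38, 13, 17 and 18 held 167, 85.7, 74.4 and 51.3 CPM of Glycam1, and the other 19 KB2P tumours held 0 to 0.313. The same 4 tumours stood apart in 6 B and plasma cell genes, which summed to 118 to 157 CPM against 1.81 to 14 in the other 19. Chst4, a sulfotransferase of high endothelial venules, was 0.954 to 1.74 CPM in the 4 and 0 to 0.528 in the other 19. The 5 measured genes of a list for high endothelial venules and lymph nodes summed to 32.5 to 59.0 CPM in the 4, inside the 0.993 to 198 of the other 19, in which KB2P tumour 16 was highest. Caseins did not follow: they summed to 4.01 and 4.70 CPM in tumours 13 and 38, and to 151 and 316 in tumours 17 and 18.

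Without these 4 tumours, which were left out with their Glycam1 in view, the Glycam1 difference is no test of that gene. Its median was 0.0573 CPM in the 21 KB1P and KB1PM tumours and 0.0624 in the 19 remaining KB2P tumours, and KB1PM tumour 6, at 16.4 CPM, stood far above the rest. For the other genes in the fit without the 4, a choice made after the data were seen, Csn1s1 (3.59), Csn1s2a (4.41) and Csn2 (3.61) were still called and Lalba was not (2.05, edgeR adjusted p = 0.0565), where 11.2% of genes were called. In L1363P carcinosarcomas 54.1 and 6, both high in Glycam1, the B and plasma cell genes and Chst4 were low and caseins high. Carcinosarcoma 54.1 held 479 CPM of Glycam1 with 8534 CPM of casein, 1.37 CPM of B and plasma cell genes and 0.152 of Chst4, and carcinosarcoma 6 held 78.8 CPM with 1898, 3.06 and 0. High lymphoid markers did not always come with Glycam1: KP adenocarcinoma replicate 2, at 98.0 CPM of B and plasma cell genes, held 0 CPM, and sarcomatoid tumour 32, at 106 CPM, held 0.574. In the comparison of KB1P and KB1PM with KB2P tumours, 4 of the 6 B and plasma cell genes were lower; their part in the result was not tested.

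**Figure D4:**
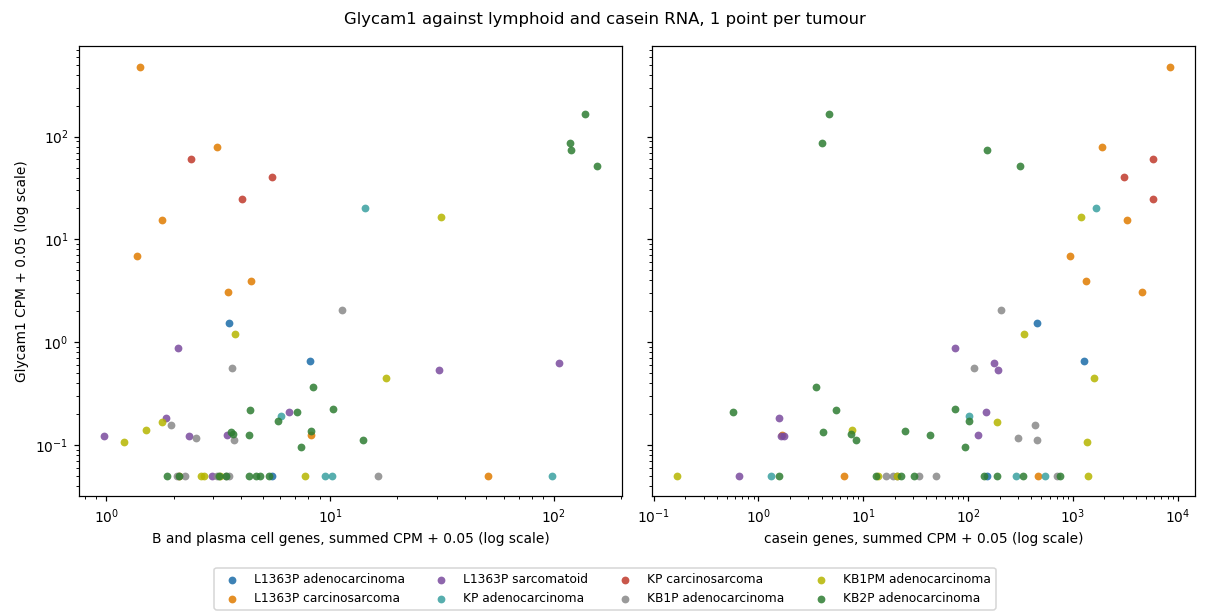
Glycam1 level against the summed CPM of 6 B and plasma cell genes (left) and of the 5 casein genes (right), all as CPM + 0.05 on log scales; points are tumours. The 4 KB2P tumours above 50 CPM of Glycam1 lie at the right end of the lymphoid axis, where sarcomatoid tumour 32 and KP adenocarcinoma replicate 2 lie far below them in Glycam1, and the carcinosarcomas above 10 CPM lie at its left and at the right end of the casein axis.

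Set beside the KB groups, adenocarcinomas of run 5625 were higher in a few members, where run and genotype cannot be told apart and the KB2P tumours serve in several comparisons. KP adenocarcinomas exceeded KB2P tumours in 4 of 8 genes, where 35.3% of all genes were called: Csn1s1 by 4.65 (SE 1.05, edgeR adjusted p = 0.000349), Csn1s2a by 7.30 (SE 1.18, edgeR adjusted p = 1.27e-06), Wap by 2.60 and Lalba by 2.40. Csn1s2a and Wap reached 1 CPM in 0 of the 23 KB2P tumours and so passed the filter on low counts through other groups. Prlr was higher as well, with 916, 139, 56.3, 55.2 and 0.9 CPM in KP adenocarcinoma replicates 5, 4, 3, 1 and 2 against 0.345 to 64.2 in KB2P (3.79, SE 0.72, edgeR adjusted p = 2.90e-05). Of the 18 regulators 6 were higher, among them Tnfsf11, the RANK ligand (2.34), the growth hormone receptor Ghr (1.91) and Wnt4 (1.65), and Cebpb was lower (-1.29). Of the 19 secretory genes 4 were higher (Muc15 3.33, Xdh 2.59, Trf 1.83, Plin2 1.05) and Fasn was lower (-0.76). All 6 macrophage and 5 of 7 fibroblast genes of the marker lists were higher in the KP adenocarcinomas as well; their part in the result was not tested. Without KP adenocarcinoma replicate 4, the difference was 0.03 for Wap (edgeR adjusted p = 0.988) and 0.70 for Lalba (edgeR adjusted p = 0.663). That tumour held 3.04 CPM of Wap, against 0.0692 to 0.232 in the other 4. Without KB2P tumours 13, 17, 18 and 38 Lalba was not called (2.33, edgeR adjusted p = 0.0547), where 35.2% of genes were called.

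L1363P adenocarcinomas exceeded KB2P tumours in Csn1s2a (7.49, SE 1.26, edgeR adjusted p = 1.15e-05) and Lalba (3.17, SE 1.03, edgeR adjusted p = 0.0376), 2 of 8 genes where 9.1% of all were called. Csn1s2a was 0.472, 40.9 and 0.782 CPM in L1363P adenocarcinomas 52, 26.2 and 7.2, and at most 0.463 in the KB2P tumours. It reached 1 CPM in 0 of the 23 KB2P tumours and so passed the filter on low counts through other groups. Without adenocarcinoma 26.2 neither gene was called, without adenocarcinoma 7.2 only 1 was called, and without the 4 lymphoid KB2P tumours Lalba was lost (3.05, edgeR adjusted p = 0.0666, 8.69% of genes called). Prlr was higher than in KB2P here too (2.75, SE 0.86, edgeR adjusted p = 0.0304), and Elf5 did not pass (0.99, edgeR adjusted p = 0.521). The call of Prlr was lost without the 4 lymphoid KB2P tumours (2.61, edgeR adjusted p = 0.0593). Of the marker lists, 1 of 9 adipocyte genes (Fabp4, 4.83) and 1 of 7 fibroblast genes (Lum, 2.36) were higher in the L1363P adenocarcinomas, and 2 of 13 epithelial genes were; their part in the result was not tested. Against the KB1P and KB1PM tumours edgeR, DESeq2 and limma called 0 of 8 genes for the L1363P adenocarcinomas (5% of genes called by edgeR), with 1, Csn1s2a, at an unadjusted p under 0.05. The KP adenocarcinomas were higher than KB1P and KB1PM in Csn1s2a (2.90, edgeR adjusted p = 0.0305) and Csn1s2b (2.56, edgeR adjusted p = 0.0206), where 27.3% of genes were called, and both calls were lost without KP adenocarcinoma replicate 4, when the difference of Csn1s2a turned to -0.76. The mean of Csn1s2b was 0.185 CPM in the KP adenocarcinomas and 0.0267 in the KB1P and KB1PM tumours, so its call rests on very few counts. Csn1s2b reached 1 CPM in 3 of 73 tumours, all carcinosarcomas, through which it passed the filter on low counts. Of the 18 regulators 4 were higher in that comparison (Tnfsf11 2.74, Prlr 2.67, Ghr 1.43, Nr3c1 0.68), and of the 19 secretory genes 2 were higher (Muc15 2.20, Xdh 2.05) and Fasn was lower (-1.05). Of the marker lists, 6 of 7 fibroblast, 6 of 6 macrophage, 6 of 6 skeletal muscle and 5 of 5 endothelial genes were higher in the KP adenocarcinomas, as was 1 of 9 adipocyte genes, Lep; their part in the result was not tested.

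Tumours almost without Elf5 held almost no milk protein RNA, and tumours rich in Elf5 held anything from none to much. In the 7 tumours under 1 CPM of Elf5 (carcinosarcomas 17 and 4, sarcomatoid tumours 43, 37, 10 and 29 and KP adenocarcinoma replicate 2) the 8 genes summed to 0.853 to 6.44 CPM. In the 9 tumours with 1 to 20 CPM they summed to 0.893 to 196, and in the 57 with at least 20 CPM to 0.586 to 9030. All 15 tumours with at least 100 CPM of Csn1s1 held 32.6 to 283 CPM of Elf5. Conversely, of the 27 tumours with at least 100 CPM of Elf5, 10 held under 10 CPM of Csn1s1 and 3 held under 10 CPM of Csn3. KB1PM tumour 2, with 38.1 CPM of Elf5, had only 10 milk protein counts in all.

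**Figure D5:**
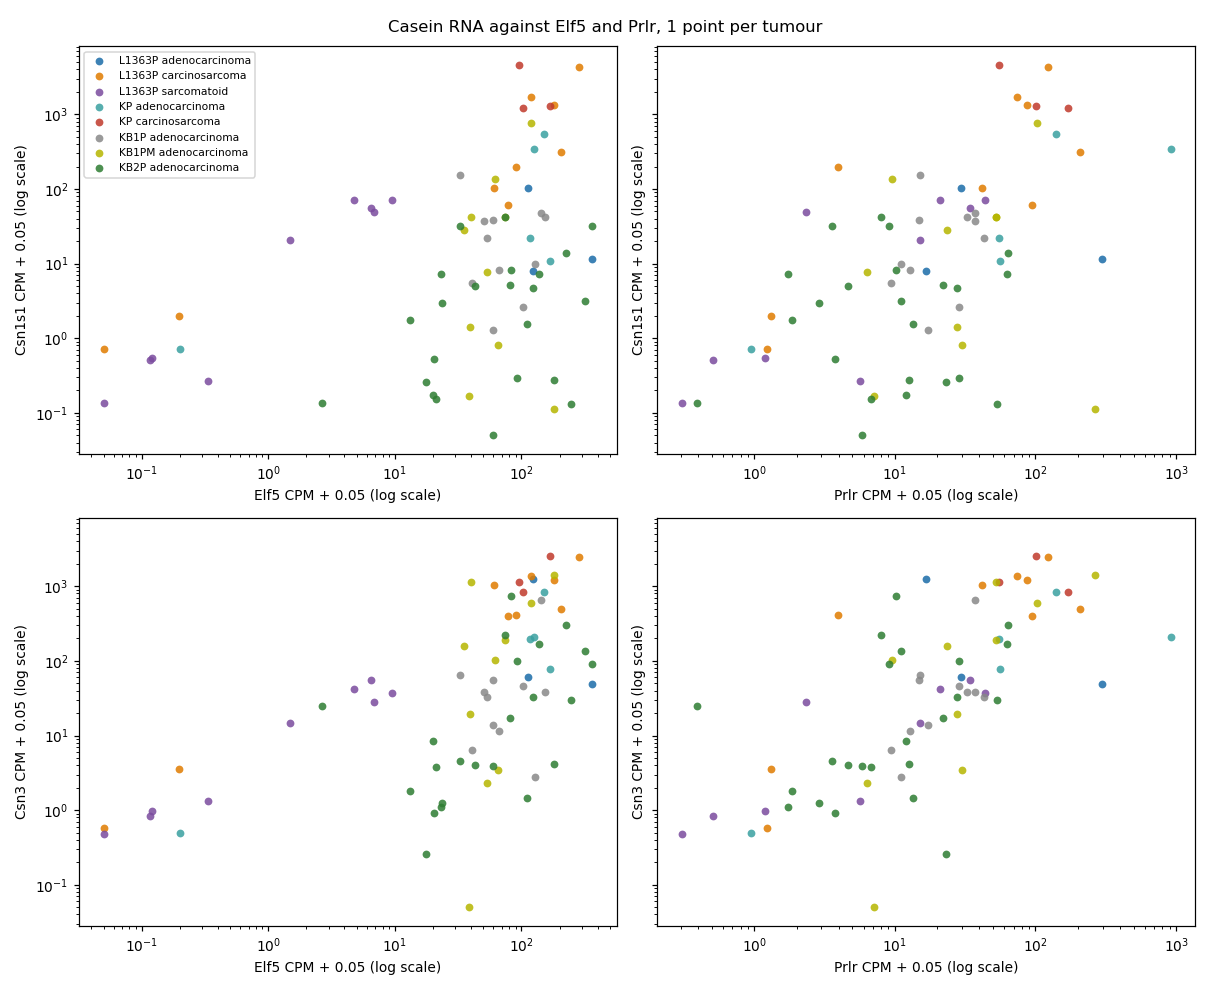
Csn1s1 (top) and Csn3 (bottom) against Elf5 (left) and Prlr (right) in the 73 tumours, all as CPM + 0.05 on log scales; points are tumours, coloured by group. Tumours under 1 CPM of Elf5 lie at the lower left, and above 20 CPM of Elf5 the casein levels spread over the whole axis.

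Relations to Elf5 and Prlr were examined within the 5 groups of at least 6 tumours, 80 in all, of which 78 gave a value. The L1363P carcinosarcomas and the sarcomatoid tumours each split into separate clusters, so no pooled correlation is given for them; the 4 relations called in the family, those of Csn1s1 and of Csn3 with Elf5, lay in these groups. Without the 2 tumours farthest from the median of the regulator, 0 were called with 7 tumours each. In the sarcomatoid tumours both clusters stayed after this step, so it cannot show a relation apart from the split. Among the 7 carcinosarcomas of at least 40% epithelium, Csn1s1 followed Elf5 with r = 0.80 and rho = 0.82, and Csn3 with r = 0.49. The other members had r with Elf5 from 0.02 (Csn1s2b) and 0.04 (Lalba) to 0.60 (Glycam1). With Prlr, r was 0.30 for Csn1s1 and 0.35 for Csn3. It was negative for all other members, from -0.25 (Csn2) to -0.58 (Lalba). Among the 11 KB1P, 10 KB1PM and 23 KB2P tumours 0 of 48 relations were called by Pearson's r and 2 by rank, Csn3 with Elf5 in KB2P and Csn3 with Prlr in KB1PM tumours.

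The relation nearest to the threshold in the KB groups was that of Csn3 with Elf5 in the KB2P tumours, with r = 0.55 (permutation p = 0.00661, adjusted p = 0.0679 over the family) and rho = 0.62 (permutation p = 0.00207, adjusted p = 0.0433 over the family). It was 0.69 without the 2 farthest tumours, 0.62 in the 9 tumours of run 2459 and 0.46 in the 12 of run 2749. Csn1s1 followed Elf5 less closely there (r = 0.35, permutation p = 0.101), and in KB1P tumours r was -0.09 for Csn1s1 and 0.19 for Csn3. Csn3 and Prlr had r = 0.77 (permutation p = 0.00923, adjusted p = 0.0707 over the family) and rho = 0.87 (permutation p = 0.00222, adjusted p = 0.0433 over the family) in the 10 KB1PM tumours, with r = 0.76 in the 7 of run 1756. Over the 11 KB1P and the 23 KB2P tumours r was 0.66 and 0.42, not called after adjustment. Within KB2P, r was 0.48 in the 12 tumours of run 2749 and -0.03 in the 9 of run 2459. The median r of the 8 genes with Elf5 was 0.22, 0.02 and 0.35 in KB1P, KB1PM and KB2P tumours, and with Prlr 0.22, 0.05 and 0.23.

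Across all 73 tumours, with each group and run centred, the gene most like the mean of the 8 members among 12169 genes was Elf5 (r = 0.70), followed by Muc15, Arhgef16, Atp6v1c2, Ehf, Fxyd3, Col9a2, Sox10, Ap1s3 and Kcnk1 (r 0.63 to 0.68). Prlr stood 119th (r = 0.49), Stat5a 407th (0.37) and Stat5b 1198th (0.24). These r describe the tumours, which share libraries and the split of the carcinosarcomas and sarcomatoid tumours. Among the members, Csn1s1 and Csn2 were closest (r = 0.84), then Csn1s2a and Wap (0.77) and Csn1s2a and Csn2 (0.75). The pattern of Csn3 was the most like that of Prlr (0.63), and Glycam1 was the least like it (0.14). Glycam1 was also most like other genes than the rest, led by Il27ra and Gimap8 (both 0.47), genes known from lymphocytes. In the casein cluster, Odam, which lies between Csn1s2b and Csn3, reached 1 CPM in 8 tumours with a highest level of 36.0 CPM, and Prr27 in 3 tumours.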

How the data were processed

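The authors deposited a table of read counts per gene symbol for the 73 tumours and a table of log2 values made from it; per the submitters' processing notes, reads were trimmed with cutadapt 2.10, aligned to mm10 with STAR 2.7.3a and counted with featureCounts 2.0.0. The libraries were strand-specific TruSeq polyA libraries, per the labels' protocols; whether strand was used in counting is unknown from the labels and notes. The deposited counts (39438 symbols) were fitted in R 4.3.3 with edgeR 4.0.16: genes were kept by filterByExpr (minimum count 10), libraries scaled by TMM and groups compared by its quasi-likelihood F test; p-values were adjusted by Benjamini and Hochberg over all genes and a threshold of 0.05. The L1363P and KP comparisons used their 29 libraries, and comparisons with KB1P, KB1PM or KB2P all 73. CPM are counts per 1000000 of the TMM-scaled library size, and a prior count of 2 was added before log2 CPM were correlated. Transcript lengths and positions came from GENCODE M21 (GRCm38) and promoters from RefSeq. Relations within groups were tested by permutation, exact under 10 tumours.

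All 8 milk protein genes, Elf5 and Prlr are named, and of the regulator and secretory lists up to 4 called genes with the largest change per comparison, with single exceptions in direction and some that did not pass; the most similar genes are the 10 with the highest correlation. The members and the lists were chosen with earlier results of these data known. On simulated counts, the sarcomatoid against carcinosarcoma fit of 15839 genes recovered 98% of 100 genes with a log2 fold of 3. Recovery at the spread of the 8 milk protein genes was not tested. Alternatives were DESeq2 1.42.0, limma 3.58.1 on the deposited log2 values, other scaling, no filter, single groups or runs, and leaving out tumours.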

Additional observations from a re-analysis of the deposited data

Results flagged for a closer look

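In groups of 4 to 10 tumours, 5 of 40 gene and group combinations held a tumour far from the rest by Dixon's criterion, which chance meets in about 1 in 20. KP adenocarcinoma replicate 4 was high in Wap, at 3.04 CPM against 0.0692 to 0.232 in the other 4, and in Glycam1, at 20.3 CPM against 0 to 0.142. It was also the tumour on which the higher Csn1s2a and Csn1s2b of KP adenocarcinomas over KB1P and KB1PM rested. KP adenocarcinoma replicate 2 was low in Elf5, at 0.150 CPM against 116 to 167, and held 1.65 CPM of Epcam although labelled 100% epithelial.

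KB1PM tumour 7 was high in Csn1s2a, at 17.0 CPM against 0 to 0.505 in the other 9. KB1PM tumour 6 was high in Glycam1, at 16.4 CPM against 0 to 1.15, and also held the highest Lalba of the KB1PM tumours, 53.1 CPM. Its B and plasma cell genes summed to 31.3 CPM and its Chst4 was 0.619 CPM.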

How the results depend on the processing

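Counts of the 8 genes called moved with the tool, with its input and filter, with the groups in the fit and with single tumours. With limma on the deposited log2 values, sarcomatoid tumours differed from carcinosarcomas in 2 genes (7 with edgeR) and from adenocarcinomas in 0 (1). With limma, KP adenocarcinomas differed from KB2P tumours in 1 (4) and from KB1P and KB1PM in 0 (2), L1363P adenocarcinomas from KB2P in 0 (2), and KB1P and KB1PM from KB2P in 0 (5). Fits of the compared groups alone gave 4, 2, 0, 1 and 3 for sarcomatoid against carcinosarcoma, KP against KB2P, KP against KB1P and KB1PM, L1363P against KB2P, and KB1P and KB1PM against KB2P. DESeq2 gave 1 for carcinosarcomas against L1363P adenocarcinomas (0 with edgeR), 1 for KB1PM against KB1P (0), 1 for L1363P adenocarcinomas against KB2P and 0 for KP adenocarcinomas against KB1P and KB1PM. With KB2P tumours of run 2749 alone, L1363P, KP and KB1P with KB1PM differed from them in 1, 2 and 3 genes, and with run 2459 alone the last was 3. Leaving out 1 tumour at a time gave 6 to 8 and 0 to 1 for the sarcomatoid comparisons, 0 to 2 for L1363P against KB2P, 0 to 2 for KP against KB1P and KB1PM, 3 to 4 for KP against KB2P and 4 to 5 for KB1P and KB1PM against KB2P. Csn1s2a in KP against KB1P and KB1PM ranged from -0.76 (without KP adenocarcinoma replicate 4, edgeR adjusted p = 0.746) to 3.29 when each KP adenocarcinoma was left out. Without KB2P tumours 13, 17, 18 and 38 Glycam1 was 3.03 for KB1P and KB1PM against KB2P, which is no test since these tumours were chosen with their Glycam1 in view, and 1 gene was called for L1363P against KB2P. With KP adenocarcinoma replicate 2 and L1363P carcinosarcomas 17 and 4 left out, 1 gene was called for KB1PM against KB1P. The percentage slope had 0 called without carcinosarcomas 17 and 4, with slopes of 0.74 to 3.07 for the 6 genes, and 8 called with DESeq2. The relations to Elf5 and Prlr had 0 called without the 2 farthest tumours. In the carcinosarcomas r with Elf5 was then 0.80 for Csn1s1 and 0.49 for Csn3, and in the sarcomatoid tumours the 2 clusters stayed. The cause of these changes was not tested, apart from smaller samples where tumours were left out. With a replicate block on the title numbers shared by KB1P and KB1PM with KB2P tumours 1 gene was called, and 0 for the same tumours without it. The 5 numbers gave correlations of deviations from 0.0451 to 0.373, 4 of them over 0.1, and 4 of 5 numbers matched best with their own number, a hint from the data and not from the design. Since not all were over 0.1, they were not used as pairs. No block call differed for KB1PM against KB1P (0). The comparisons of KP carcinosarcomas, of L1363P with KP adenocarcinomas, of L1363P adenocarcinomas with KB1P and KB1PM, and the difference between genotypes had 0 called by edgeR and in each alternative run. Csn1s2b and Wap rest on few counts in most tumours, which limits their precision.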

Other observations

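In the 44 KB1P, KB1PM and KB2P adenocarcinomas, with each group and run centred, the genes most like the mean of the 8 milk protein genes were other ones than over all 73 tumours. Faap20 came first (r = 0.61), followed by Btn1a1, a protein of the milk fat globule (0.59), Rab7b (0.59), Gnb1 (0.55), Foxi1 (0.54), Pgd, Zfp933, Arhgef16, Hmgcll1 and Nmnat1. Elf5 stood 208th (0.35) and Prlr 819th (0.24). Of these 10 genes, 6 (Faap20, Gnb1, Pgd, Zfp933, Arhgef16 and Nmnat1) lie on chromosome 4 beyond 147 Mb, a region noticed after the genes were ranked. It holds 112 of the 12089 genes with a position (0.926%) and 37 of the 100 most similar genes.

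The median r of the region's genes with the milk protein mean was 0.34, against -0.01 for all genes. In the 21 KB1P and KB1PM tumours it was 0.45 (all genes 0.01) with 27 of the 100 most similar genes in the region, and in the 23 KB2P tumours 0.26 (all genes -0.03) with 3 of 100. In the 29 L1363P and KP tumours it was 0.00479 (all genes 0.0118) with 1 of 100. DNA copy number was not analysed here.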
